A study of Mus musculus with 8 samples.

Results

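Tropomodulins and actin filament capping proteins are described here in haematopoietic stem cells with a conditional deletion in the BMP receptor gene Bmpr2. The set comprised every row of the annotated table whose gene symbol was Tmod1, Tmod2, Tmod3, Tmod4, Capza1, Capza2, Capzb or Capg. The 8 genes were selected on this list of symbols, and the list itself was chosen by a measured value, the KO minus WT difference of Tmod1. All 8 were found, on 9 probe sets, among 21104 genes measured in all. The difference of Tmod1 between knockout and control pools had the fourth smallest p of all genes. Its family and the other capping genes were gathered around it, so their knockout against control differences are given as descriptions.

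Actin filaments have a fast-growing barbed end and a slow-growing pointed end, and caps at each end set how long filaments become and how quickly they turn over. Tropomodulins cap pointed ends, together with tropomyosin wound along the filament. Capping protein, a heterodimer of an alpha and a beta subunit, and CapG, of the gelsolin family, cap barbed ends. In red blood cells tropomodulin 1 caps the short filaments that tie the spectrin network together under the membrane, and tropomodulin 3 is the widely expressed form in other cells.

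The KO group consisted of 4 samples of stem cells from untreated Vav-Cre;BMPR-II(fl/fl) mice on a C57Bl/6 background, in which Cre under the Vav promoter, active throughout blood cells, removes exons 4 and 5 of Bmpr2. The WT group consisted of 4 samples from untreated littermates negative for Cre. Each sample pooled the bones of 3 mice of its type, per the labels' protocols, so that a replicate is a pool. The WT pools were not of a single genotype: WT pools 1 to 4 held 1, 0, 1 and 2 BMPR-II(fl/fl) mice and 2, 3, 1 and 1 BMPR-II(fl/+) mice, and WT pool 3 also held 1 BMPR-II(+/+) mouse. All KO pools carried the Cre transgene and no WT pool did, so an effect of Cre and an effect of Bmpr2 loss cannot be told apart. The sources used here do not state the age of the mice. Values listed for the pools of a group run in order of pool number.

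Cells were sorted as LSK (lineage-negative, Sca-1-positive, Kit-positive) CD9hi CD48- CD150+ marrow cells. Their RNA was amplified and hybridised to Affymetrix arrays, 1 per pool, and the deposited values are log2 levels after robust multi-array averaging (RMA), here called log2 levels. Kit, the receptor that defines the enriched cells, averaged 10.19 ± 0.30 in the KO pools and 10.35 ± 0.18 in the WT pools, and Ly6a, which encodes Sca-1, averaged 8.78 ± 0.16 in the KO pools and 8.87 ± 0.38 in the WT pools (SD, n = 4 each). Cd9 averaged 8.91 ± 0.65 in the KO pools and 8.91 ± 0.62 in the WT pools, Slamf1, which encodes CD150, 7.17 ± 0.35 in the KO pools and 6.90 ± 0.23 in the WT pools, and Cd48, which the gate selects against, 5.17 ± 0.72 in the KO pools and 4.99 ± 0.65 in the WT pools (SD, n = 4 each). Bmpr2 itself was at 7.22, 6.64, 6.70 and 6.91 across the KO pools, against 8.09, 7.63, 7.05 and 7.83 across the WT pools, so that KO pool 1 overlapped WT pool 3 and the remaining KO pools were lower than any WT pool. The difference was -0.79 (SE 0.21). Whether the probes of this gene lie in the deleted exons was not examined, and probes outside them would not check the deletion. WT pool 2 stood farthest from the rest, with a median correlation across genes of 0.982 to the other arrays, where the other pools had 0.985 to 0.987. Xist, transcribed from the inactive X chromosome of female cells, was at 10.73, 10.10, 10.02 and 4.38 across the KO pools, against 10.57, 9.96, 4.52 and 4.21 across the WT pools, so the sex makeup of the pools was not the same in both groups.

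The sequence just before the transcription start of Tmod1 is shown because Tmod1 is the member whose groups of pools lay farthest apart. It comes from RefSeq on build GRCm38.p6, chr4:46038972-46039221, plus strand, and covers the 250 bases before the annotated start. Capitals mark the letters GATA, the core read by GATA factors of the erythroid and megakaryocyte lineages, and CACCC, the core read by Kruppel-like factors, on either strand (TATC and GGGTG on the opposite one).
Tmod1: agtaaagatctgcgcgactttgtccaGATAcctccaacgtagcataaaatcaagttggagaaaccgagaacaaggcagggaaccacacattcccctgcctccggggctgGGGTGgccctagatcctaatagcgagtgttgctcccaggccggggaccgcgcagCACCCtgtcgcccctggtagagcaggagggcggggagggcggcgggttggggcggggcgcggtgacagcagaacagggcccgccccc
The single GATA began 224 bases before the start, and the CACCC matches began 141 and 87 bases before it. GATA or its reverse complement occurred in the same 250 bases before the start in 53.6% of all 32851 promoter entries, and CACCC or its reverse complement in 52%. The letters GTCT or AGAC, a core bound by SMAD proteins, which carry BMP signals to the nucleus, had 0 matches in this window, and 82.9% of all entries held at least 1. GGCGCC, a GC-rich element of BMP target promoters, also had 0 matches, against 9.59% of all entries with at least 1. The promoter table had entries for 7 of the 8 genes, all but Tmod3. These letters describe the windows only, and no binding was measured.

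Tmod1 was the member with the largest difference. Its log2 level was 7.42, 7.27, 7.11 and 7.13 across the KO pools, against 6.71, 6.64, 6.67 and 6.72 across the WT pools. All KO pools lay above all WT pools, the lowest KO pool by 0.39 above the highest WT pool, and the WT pools were close together, within 0.08, while the KO pools spread over 0.31. The means were 7.23 ± 0.14 in the KO pools and 6.69 ± 0.04 in the WT pools (SD, n = 4 each), a difference of 0.55 (SE 0.11) on the log2 scale, or 1.46-fold. The authors' deposited table gives Tmod1 a fold change of 1.46. Since this difference brought the gene into view, no test of it is offered. Of all genes, 0.753% differed by at least as much in either direction. In bulk RNA, more cells that carry a transcript and more of it per cell cannot be told apart, which holds for every value here.

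Tmod3, the form found in most cell types, was brightly detected in both groups and separated them poorly. It was at 9.04, 8.86, 8.99 and 9.10 across the KO pools, against 9.07, 8.51, 8.91 and 8.77 across the WT pools. WT pool 1 lay above 3 of the KO pools and WT pool 2 lay well below every other pool. The means of 9.0 ± 0.11 in the KO pools and 8.81 ± 0.24 in the WT pools (SD, n = 4 each) differed by 0.18 (SE 0.13), with a 95% interval of -0.11 to 0.47. Without WT pool 2 the difference was 0.08, and without WT pool 1 it was 0.27.

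Tmod2, known as the tropomodulin of neurons, was dim. Its levels were 4.53, 4.45, 4.59 and 4.57 across the KO pools, against 4.61, 4.73, 4.65 and 4.72 across the WT pools. All KO pools lay below all WT pools, but the lowest WT pool exceeded the highest KO pool by only 0.02. The means were 4.53 ± 0.06 in the KO pools and 4.68 ± 0.06 in the WT pools (SD, n = 4 each), a difference of -0.14 (SE 0.10). Its residual SD of 0.0612 was small, with only 0.929% of genes below it, and the moderated SE, which borrows spread from the other genes, is wider than its own pools would give. The lower quartile of gene levels was 4.49, so both groups of Tmod2 values lie near the dim end of the array.

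Tmod4, the form of skeletal muscle, was equally dim and showed no separation. It was at 4.45, 4.49, 4.50 and 4.93 across the KO pools, against 4.35, 4.77, 4.69 and 4.58 across the WT pools. KO pool 4 was the highest of all pools and WT pool 1 the lowest. The means were 4.59 ± 0.23 in the KO pools and 4.60 ± 0.18 in the WT pools (SD, n = 4 each), a difference of -0.01 (SE 0.14) with a 95% interval of -0.31 to 0.30. Among the tropomodulins, Tmod1 thus differed by 0.55, whereas Tmod3 differed by 0.18, Tmod4 by -0.01 and Tmod2 by -0.14. The 95% intervals of Tmod3, Tmod4 and Tmod2 (-0.36 to 0.07 for Tmod2) all included 0, so their signs are not settled. Taken as a log2 ratio within each array, Tmod1 minus Tmod3 (each centred on its mean over the 8 pools) was 0.33, 0.36, 0.07 and -0.02 across the KO pools, against -0.41, 0.08, -0.30 and -0.10 across the WT pools. In that ratio the groups overlapped, with WT pool 2, which was low in Tmod3, above KO pools 3 and 4.

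**Figure D1:**
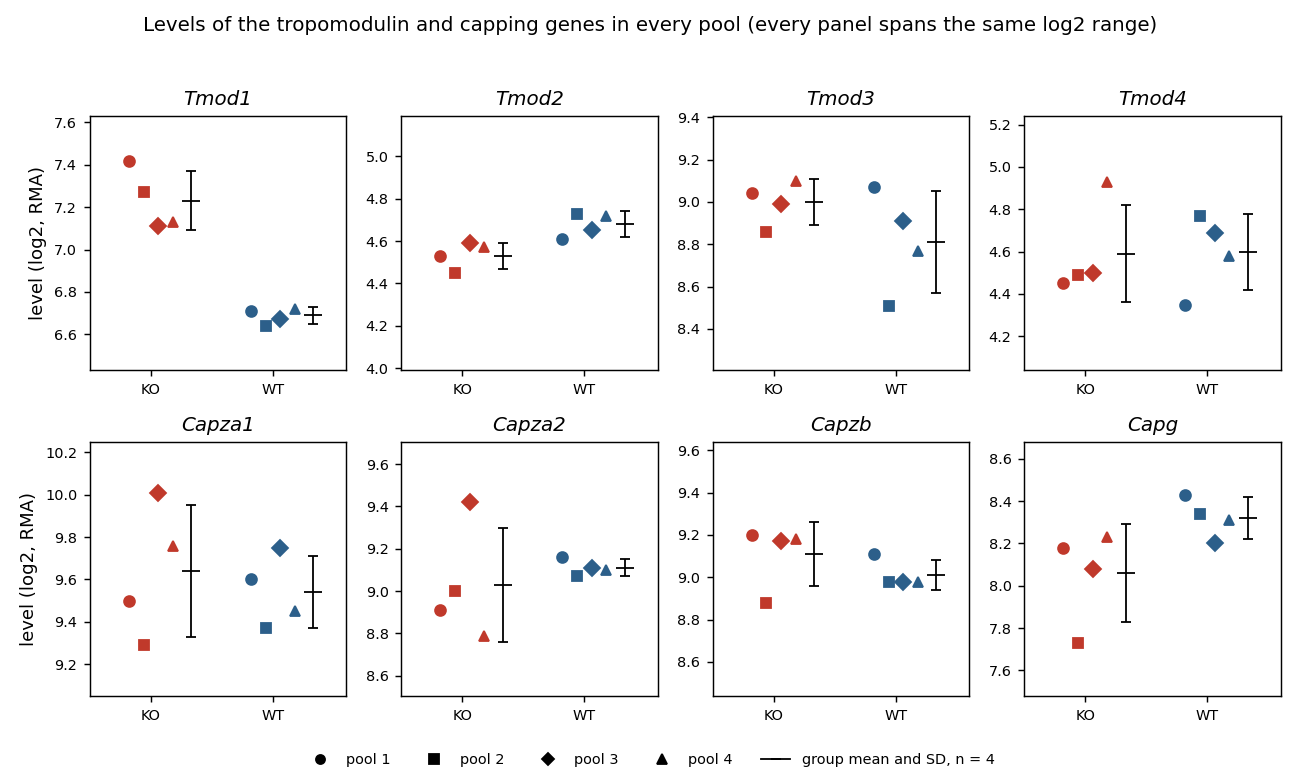
Log2 levels (y axis) of the 8 genes in the KO pools (red, left) and the WT pools (blue, right), with the mean and SD of each group (n = 4) beside the points; every panel spans the same range of log2 units. Tmod1 spans 7.11 to 7.42 over the KO pools and 6.64 to 6.72 over the WT pools, and the groups of the other genes overlap or, for Tmod2, nearly touch.

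The genes of the alpha subunits of capping protein had differences of opposite sign, each smaller than its SE. Capza1, which encodes alpha 1, was at 9.50, 9.29, 10.01 and 9.76 across the KO pools, against 9.60, 9.37, 9.75 and 9.45 across the WT pools. The KO pools lay on both sides of the WT pools, with KO pool 3 highest and KO pool 2 lowest of all. The means of 9.64 ± 0.31 in the KO pools and 9.54 ± 0.17 in the WT pools (SD, n = 4 each) differed by 0.10 (SE 0.16), with a 95% interval of -0.25 to 0.45, and by -0.02 without KO pool 3. A further probe set carries the same symbol. It gave 9.34, 9.23, 9.88 and 9.57 across the KO pools, against 9.48, 9.16, 9.57 and 9.34 across the WT pools, a difference of 0.12 (SE 0.16). The probe sets ordered the KO pools alike, and whether they share probe sequence was not examined.

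Capza2, which encodes alpha 2, was at 8.91, 9.0, 9.42 and 8.79 across the KO pools, against 9.16, 9.07, 9.11 and 9.10 across the WT pools. KO pools 1, 2 and 4 were under the whole WT range, whereas KO pool 3 exceeded it. The means were 9.03 ± 0.27 in the KO pools and 9.11 ± 0.04 in the WT pools (SD, n = 4 each), a difference of -0.08 (SE 0.14) with a 95% interval of -0.38 to 0.22. The difference was -0.21 without KO pool 3 and -0.0019 without KO pool 4. The log2 ratio of Capza1 to Capza2, centred over the 8 pools, was 0.09 ± 0.28 in the KO pools and -0.09 ± 0.15 in the WT pools (SD, n = 4 each), with KO pool 4 at 0.45 and KO pool 2 at -0.23. Capza1 and Capza2 correlated with Pearson's r of 0.45 over the 8 pools, and of 0.53 after the group means were removed. KO pool 3 was the highest of all pools for both genes.

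Capzb, which encodes the beta subunit shared by every capping protein dimer, was at 9.20, 8.88, 9.17 and 9.18 across the KO pools, against 9.11, 8.98, 8.98 and 8.98 across the WT pools. KO pools 1, 3 and 4 exceeded the whole WT range, whereas KO pool 2 was under it. The means of 9.11 ± 0.15 in the KO pools and 9.01 ± 0.07 in the WT pools (SD, n = 4 each) differed by 0.10 (SE 0.11), with a 95% interval of -0.15 to 0.34. The difference was 0.06 without KO pool 1 and 0.17 without KO pool 2.

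Capg, an actin cap abundant in macrophages, had the largest difference below 0. It was at 8.18, 7.73, 8.08 and 8.23 across the KO pools, against 8.43, 8.34, 8.20 and 8.31 across the WT pools. KO pools 1 to 3 were under the whole WT range, and KO pool 4 exceeded the lowest WT pool by 0.03. The means were 8.06 ± 0.23 in the KO pools and 8.32 ± 0.10 in the WT pools (SD, n = 4 each), a difference of -0.26 (SE 0.13), or 1.20-fold lower, with a 95% interval of -0.55 to 0.02. Without KO pool 2 the difference was -0.16, and without KO pool 4 it was -0.32.

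**Figure D2:**
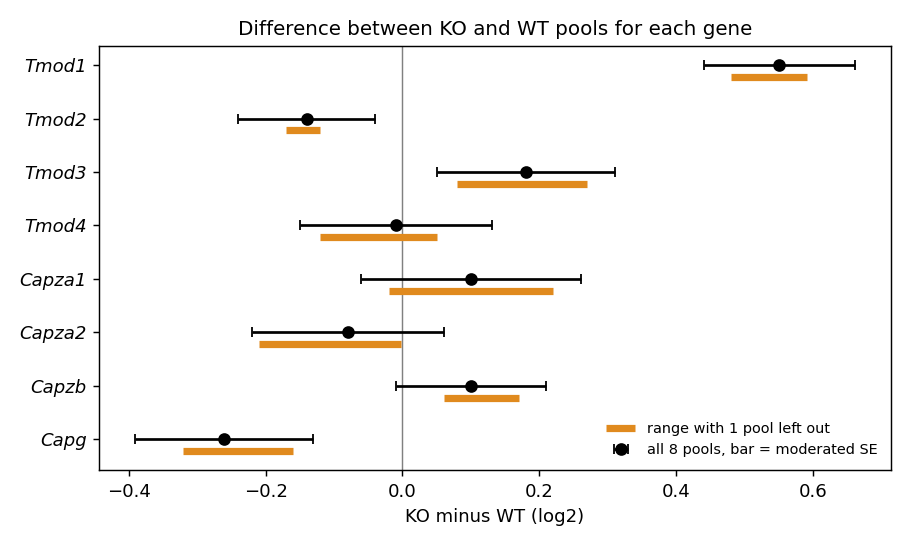
Difference of KO minus WT in log2 units (x axis) for each gene (y axis); points with bars give the difference over all 8 pools with its moderated SE, and orange bands the range when each pool was left out in turn. Tmod1 stays between 0.48 and 0.59 and Capg between -0.32 and -0.16, while the band of Tmod4 reaches both sides of 0.

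Over the whole set, 4 genes had a higher and 4 a lower mean in KO, with a median difference of 0.04, beside 48.7% of all genes with a higher and 51.3% with a lower mean and a median of 0 over all genes. With the arrays centred on their medians, 62% of all genes had a higher and 38% a lower mean. Limma's test with Benjamini-Hochberg adjustment over all genes called 0 of 21104 genes at an adjusted p under 0.05 (0%), hence none of the 8. At an unadjusted p under 0.05 limma had 960 genes (4.55%), and none of the 7 genes beside Tmod1 was among them. The equal-variance test had 913 genes at that threshold and 0 after adjustment. Of the 7 genes, only Tmod2 was under 0.05 in the equal-variance test, with an unadjusted p of 0.0155 against limma's 0.164. KO and WT pools were fully separated for 2 of the 8 genes, Tmod1 with KO above and Tmod2 with KO below. Full separation was found for 2.58% of all genes, with KO above for 1.09% and KO below for 1.5%. Because the set was built around Tmod1, nothing is read from the comparison of these shares.

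The SD was larger in KO than in WT for 6 of the 8 genes. KO pool 2 was the lowest KO pool for 5 genes, Tmod2, Tmod3, Capza1, Capzb and Capg, and the highest for 0. WT pool 2, the array farthest from the others, was the lowest WT pool for 4 genes, Tmod1, Tmod3, Capza1 and Capza2, and the highest for 2, Tmod2 and Tmod4. For Tmod1, KO pool 2 was the second highest of the KO pools, and WT pool 2 lay only 0.08 under the highest WT pool. The same counts were not made over all genes, so whether these patterns are particular to the set was not tested.

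The tropomyosins, partners of tropomodulin at the pointed end, and the leiomodins, its relatives, are taken here as 1 list. Of 7 tropomyosin and leiomodin genes, 3 had a higher and 4 a lower mean in KO, with a median difference of -0.02, and 0 passed limma's adjusted test in either direction. Tropomyosins are the rod-like proteins to which tropomodulins bind, and the most brightly detected, Tpm3, averaged 10.65 ± 0.20 in the KO pools and 10.55 ± 0.16 in the WT pools (SD, n = 4 each). Lmod1, which encodes a leiomodin, a relative of tropomodulin that nucleates filaments, had the largest difference of the list at -0.24 (SE 0.14). It was -0.15 without KO pool 1. The genes with a higher mean in KO were all tropomyosins, while Lmod2 (-0.11) and Lmod3 (-0.09) were lower, as Lmod1 was. The leiomodin genes all lay below the median gene level of 5.8.

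The spectrin membrane skeleton, where tropomodulin 1 works in red cells, had 7 genes higher and 6 lower of 13, with a median difference of 0.05, and 0 passed in either direction. Mpp1, which encodes the palmitoylated red cell membrane protein p55, was at 7.34, 7.61, 7.14 and 7.04 across the KO pools, against 7.03, 6.85, 6.98 and 6.79 across the WT pools. All KO pools lay above all WT pools, KO pool 4 only narrowly, and the difference was 0.37 (SE 0.14). Add3, which encodes gamma adducin, a barbed-end cap of spectrin-bound filaments, averaged 7.38 ± 0.07 in the KO pools and 7.12 ± 0.16 in the WT pools (SD, n = 4 each), a difference of 0.26 (SE 0.11). Ank1, the ankyrin of red cells, differed by -0.14 (SE 0.10).

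Among other caps of the barbed end, the gene of twinfilin 2 had the largest difference. Twf2, which encodes a protein that binds actin monomers, caps barbed ends and contacts capping protein, was at 8.22, 8.01, 8.49 and 8.79 across the KO pools, against 8.02, 7.15, 7.97 and 7.67 across the WT pools. Of the KO pools, 3 lay above every WT pool, and KO pool 2 lay just below WT pool 1. The means of 8.38 ± 0.34 in the KO pools and 7.70 ± 0.40 in the WT pools (SD, n = 4 each) differed by 0.67 (SE 0.21), or 1.59-fold. The difference was 0.49 without WT pool 2 and 0.8 without KO pool 2. Twf2 was the only gene of the 102 measured in the 8 pathway lists with a larger absolute difference than Tmod1. Of all genes, 0.753% differed by at least as much as Tmod1, so nothing is read from this count. Its limma adjusted p was 0.967. The related Twf1 was at 7.90, 7.68, 8.15 and 8.18 across the KO pools, against 7.74, 7.51, 7.99 and 8.0 across the WT pools. Pool 2 was the lowest in each group. With the pools taken as unpaired, Twf1 differed by 0.17 (SE 0.15), and by 0.07 without WT pool 2. Each KO pool lay above the WT pool of the same number by about as much, though the labels do not say what the number shares. The unpaired SE includes the spread that same-numbered pools had in common. The 0.07 keeps KO pool 2 without the WT pool of its number. Over the 13 genes of the gelsolin family, twinfilins and EPS8 proteins, 6 were higher and 7 lower, with a median of -0.02, and 0 passed in either direction. With the arrays centred on their medians, which moves the median of all genes to 0.043, against -0.004 without, 10 of 13 were higher.

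The partners and regulators of capping protein had 7 genes higher and 3 lower of 10, with a median of 0.06, and 0 passed in either direction. Rltpr, now called Carmil2, which encodes a protein that uncaps barbed ends, differed by -0.29 (SE 0.15). Capza3, the alpha subunit of male germ cells, was dim at 3.07 ± 0.16 in the KO pools and 3.32 ± 0.14 in the WT pools (SD, n = 4 each). Sh3kbp1, which encodes the adaptor CIN85 that binds capping protein, differed by 0.22 (SE 0.14), or 0.15 without KO pool 1. Dynactin, the motor complex whose short filament of Arp1 carries capping protein at its end, had 7 genes higher and 2 lower of 9, with a median of 0.10, and 0 passed in either direction. Actr1a, which encodes that Arp1 subunit, averaged 8.18 ± 0.28 in the KO pools and 7.89 ± 0.19 in the WT pools (SD, n = 4 each), a difference of 0.30 (SE 0.16) that was 0.16 without KO pool 3.

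Genes that start, lengthen and dismantle filaments had medians close to that of all genes. Of 25 genes of nucleation and elongation, 14 were higher and 11 lower, with a median of 0.03, and 0 passed in either direction. The number higher was 19 with the arrays centred on their medians, and 10 to 17 with 1 pool left out. Was, which encodes the Wiskott-Aldrich syndrome protein that activates the Arp2/3 complex in blood cells, was at 7.88, 7.89, 7.86 and 7.90 across the KO pools, against 7.84, 7.56, 7.63 and 7.78 across the WT pools. All KO pools lay above all WT pools, narrowly over WT pool 1, with a difference of 0.18 (SE 0.10). Arpc5l, an Arp2/3 subunit gene, differed by 0.36 (SE 0.17), and by 0.23 without KO pool 2. Of 19 measured genes of turnover and monomer binding, 10 were higher and 9 lower, with a median of 0.01, and 0 passed in either direction. That number was 13 with the arrays centred. Cfl1, which encodes the severing protein cofilin 1, differed by 0.17 (SE 0.12), or 0.11 without KO pool 3, and its muscle relative Cfl2 by -0.25 (SE 0.14). Of 6 actins, 4 were higher and 2 lower, with a median of 0.02, and 0 passed in either direction. Actb, the main cytoplasmic actin, averaged 12.49 ± 0.12 in the KO pools and 12.35 ± 0.09 in the WT pools (SD, n = 4 each). Over all 8 pathway lists, 58 of 102 measured genes had a higher and 44 a lower mean in KO, with a median difference of 0.03. Full separation was found for 2 of them (1.96%), Mpp1 and Was, beside 2.58% of all genes. A higher mean in KO was found for 48.7% of all genes and for 57.5% of genes above the median level, whose median difference was 0.031.

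**Figure D3:**
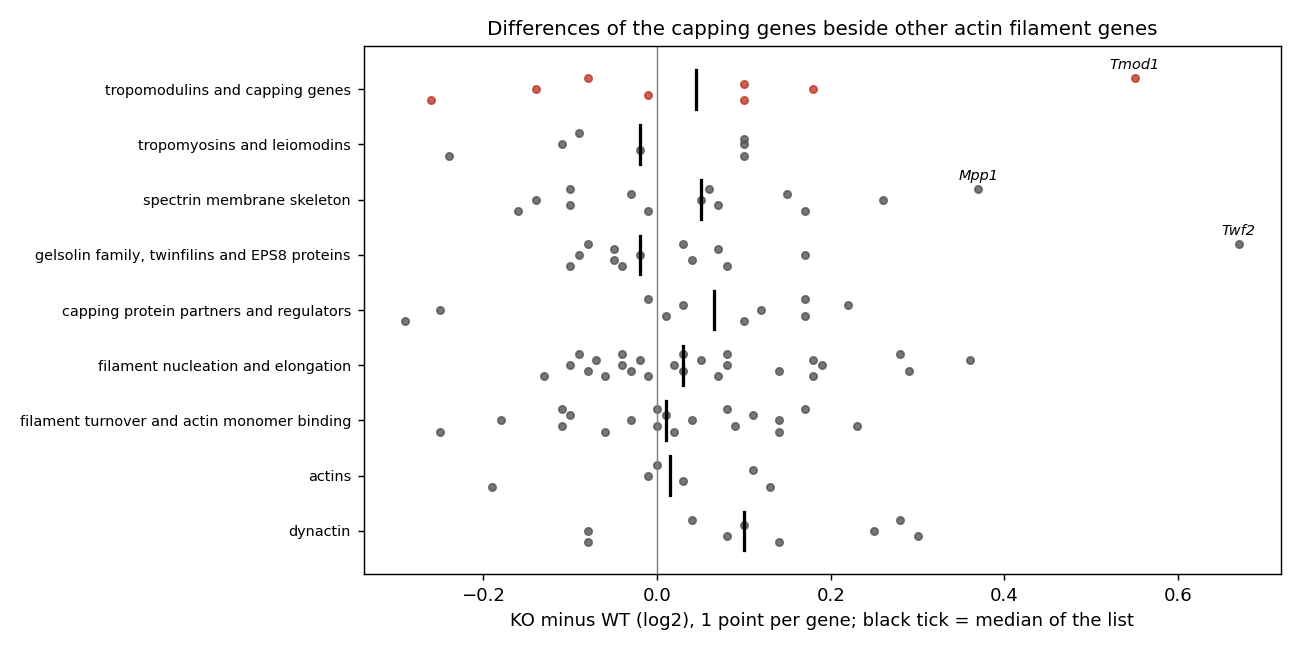
Difference of KO minus WT in log2 units (x axis) for every gene of the capping set (red) and of the 8 actin filament lists (grey), 1 point per gene, with the median of each list as a black tick. List medians lie between -0.02 and 0.10, Tmod1 sits at 0.55 and Twf2 at 0.67, and no other gene lies beyond 0.37.

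Because tropomodulin 1 has a role in red cells, the levels of markers of blood lineages are given beside it. Of 11 measured erythroid markers, 9 had a higher and 2 a lower mean in KO, with a median of 0.10, and 0 passed in either direction. Their summed log2 level ran from 72.0 to 77.3 in KO and from 70.2 to 75.4 in WT. The differences ran from -0.33 (SE 0.24) for Alas2, which encodes an enzyme of haem synthesis, to 0.69 (SE 0.53) for Car1, a carbonic anhydrase gene. Hbb-b1, a beta globin gene, averaged 9.59 ± 0.51 in the KO pools and 9.49 ± 0.49 in the WT pools (SD, n = 4 each). Hba-a1, an alpha globin gene, averaged 8.16 ± 0.54 in the KO pools and 7.66 ± 0.79 in the WT pools (SD, n = 4 each). Gata1, the transcription factor of the red cell and platelet lineages, averaged 7.66 ± 0.18 in the KO pools and 7.04 ± 0.55 in the WT pools (SD, n = 4 each). With Gata1, the largest absolute moderated t of the list belonged to Klf1 and Rhag. Klf1 differed by 0.32 (SE 0.17) and the dim Rhag by 0.16 (SE 0.11). The erythroid score, the mean deviation of the 11 measured markers from their means over the pools, was 0.01, 0.29, 0.28 and -0.20 across the KO pools, against -0.02, -0.36, 0.11 and -0.11 across the WT pools. WT pool 3 scored higher than KO pools 1 and 4 and had a Tmod1 level of 6.67, against 7.42 and 7.13 in those KO pools.

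All 10 measured megakaryocyte markers had a higher mean in KO, with a median of 0.26, and all 10 were above the median level of genes in these sorted cells, while 0 passed limma's adjusted test. The number higher was 7 without WT pool 1 and 9 without KO pool 1, KO pool 3 or WT pool 3. Of all genes above the median level, 57.5% had a higher mean in KO, with a median difference of 0.031. Gp1ba, which encodes part of the platelet receptor for von Willebrand factor, had the largest moderated statistic of the list, with a difference of 0.60 (SE 0.18), and Treml1, a gene of platelet granules, differed by 0.41 (SE 0.20). Gfi1b, a transcription factor gene of the red cell and platelet lineages, differed by 0.47 (SE 0.15) and was the only one of the 10 with all KO pools above all WT pools, KO pool 1 at 9.89 lying just over WT pool 3 at 9.87, beside 1.09% of all genes with KO above. The summed log2 level of the 10 ran from 85.7 to 90.0 in KO and from 83.1 to 88.3 in WT. The megakaryocyte score was 0.04, -0.08, 0.35 and 0.25 across the KO pools, against -0.35, -0.27, 0.18 and -0.12 across the WT pools. WT pool 3 again scored above KO pools 1 and 2, which had the highest Tmod1 levels. The other WT pools scored below every KO pool. Over the 8 pools, Tmod1 had a Pearson's r of 0.45 with the megakaryocyte score and 0.44 with the erythroid score. After the group means were removed, r was -0.5 for the megakaryocyte and 0.03 for the erythroid score. Every KO pool scored above the WT pool of the same number, though the labels do not say what the number shares. Of 12 granulocyte and monocyte markers 9 were higher and 3 lower, with a median of 0.25 and sums from 75.8 to 86.9 in KO and from 71.7 to 86.0 in WT. Of 6 macrophage markers, set here beside Capg, 4 were higher and 2 lower, with a median of 0.04 and sums from 31.3 to 36.7 in KO and from 30.5 to 35.8 in WT. The macrophage score was highest in KO pool 3, at 0.63, and in WT pool 3, at 0.48, while Capg was at 8.08 in KO pool 3 and at 8.20, the lowest WT value, in WT pool 3. Lymphoid markers had 3 higher and 4 lower of 7, mast cell and basophil markers 1 and 3 of 4, endothelial markers 4 and 1 of 5, and stromal markers 3 and 2 of 5, and 0 of the markers in these lists passed. The part of other cell types in the Tmod1 and Capg differences was not tested beyond these values.

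**Figure D4:**
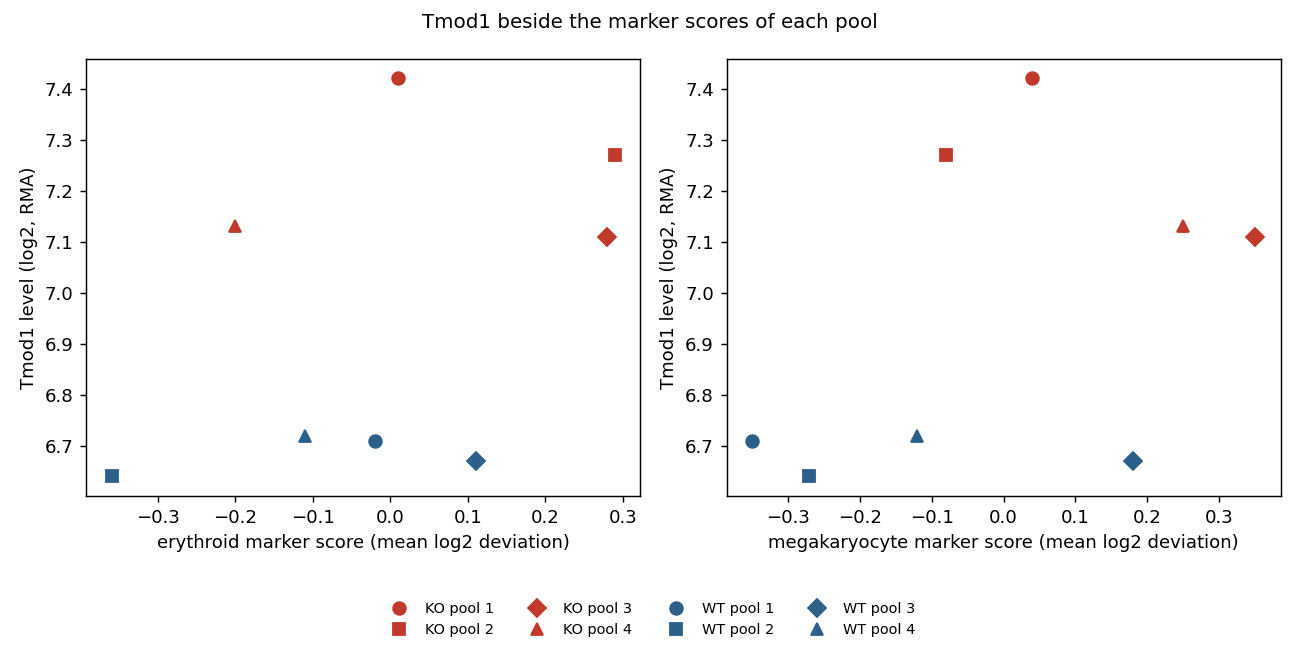
Log2 level of Tmod1 (y axis) against the erythroid (left) and megakaryocyte (right) marker score of the same pool, in mean log2 deviation (x axis), for 4 KO pools (red) and 4 WT pools (blue). KO pools lie at or above 7.11 and WT pools at or below 6.72; the scores of the groups overlap in part, with a WT pool at the low end and a KO pool at the high end of each score.

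The genes whose levels followed Tmod1 most closely over the 8 pools were sought among 9678 named genes above the median level. They were Cyb5r3, a cytochrome b5 reductase gene, with Pearson's r of 0.971, the transcription factor gene Sp1 with 0.944, Relt, a gene of the TNF receptor superfamily, with 0.931, Ints3, which encodes an Integrator subunit, with 0.927, and Ammecr1l with 0.923. Cyb5r3 averaged 7.98 ± 0.10 in the KO pools and 7.56 ± 0.06 in the WT pools, and Sp1 averaged 8.31 ± 0.13 in the KO pools and 8.01 ± 0.03 in the WT pools (SD, n = 4 each). These coefficients describe 8 points that share the split between KO and WT. After the group means were removed, r with Tmod1 was 0.71 for Cyb5r3, 0.75 for Sp1, 0.66 for Relt, 0.24 for Ints3 and 0.41 for Ammecr1l. The genes were picked by r over the same 8 pools, so these values are not an independent check.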

How the data were processed

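RNA of 8 pools of sorted stem cells, 4 KO and 4 WT, was measured on 1 array each. Per the submitters' processing notes, the deposited log2 levels were made by RMA in Affymetrix Expression Console 1.3, which corrects background, normalizes probe intensities between arrays and sums each probe set on the log2 scale. The tables hold 28853 probe sets and differ by at most 1.8e-15. The authors' deposited table adds a log2 ratio equal to the difference of group means, a signed fold change score and an unadjusted p-value equal to that of an equal-variance test. The sources used here do not state the genome build behind the probe sets.

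Probe sets with 1 symbol (23586) were kept, the one with the highest mean per gene, which left 21104 genes. Limma 3.58.1 in R 4.3.3 (lmFit, eBayes, no covariate) compared KO with WT over all genes, with Benjamini-Hochberg adjustment at 0.05 and a prior of 5.4 degrees of freedom. The fit was checked on simulated data whose changes exceeded every member difference. The check therefore does not cover differences of the members' size. SE and intervals are limma's. The number of arrays limits the precision. Replicates are pools of different mice, and the sources used here do not state litters or hybridisation batches. The labels' protocols give 3 mice per pool, whereas the design text counts 4 mice in each group. All samples were mapped by title.

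The members and lists were chosen with earlier results of these data known. Named were the members, Bmpr2, the sort gate genes, genes among the 3 per list with the largest absolute moderated t, and the 5 genes most like Tmod1. Xist, Tpm3, Alas2, Car1, Hbb-b1, Hba-a1 and the neighbours of Tmod1 were added after their values were seen. Symbols are those of the authors' table, with older symbols matched through a GRCm38.p6 gene table, and promoter sequence is from RefSeq on that build. Alternatives were a replicate block, 2 further scalings, a level filter, array weights, a trended robust prior, all probe sets, the equal-variance test, leaving out each pool and, added after seeing the data, Xist as a covariate.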

Additional observations from a re-analysis of the deposited data

Results flagged for a closer look

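A sample far from the other 3 of its group was found in 3 of the 16 groups of pools examined, 2 groups for each of the 8 genes, by Dixon's criterion, which chance meets in about 1 group of 20. Capzb was at 8.88 in KO pool 2, where the other KO pools lay between 9.17 and 9.20. Capzb was also at 9.11 in WT pool 1, where the other WT pools were all at 8.98, a gap that is small in log2 units and stands out because those pools nearly coincided. Tmod4 was at 4.93 in KO pool 4, where the other KO pools lay between 4.45 and 4.50.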

How the results depend on the processing

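The Tmod1 difference of 0.55 lay between 0.48 (without KO pool 1) and 0.59 under the alternatives run, and no member passed limma's adjusted test under any of them. Leaving out a pool could not change the sign for Tmod1, since all its KO pools lay above all WT pools. Tmod4, at -0.01, changed sign with a further quantile normalization (0.04), arrays centred on their medians (0.04), array weights (0.01) and Xist as a covariate, an alternative added after seeing the data (0.06), and lay between -0.12 and 0.05 with 1 pool left out. Capza1 lay between -0.02 and 0.22 with 1 pool left out. The causes were not tested. With arrays centred on their medians, 10 of 13 genes of the gelsolin, twinfilin and EPS8 list were higher in KO, as were 62% of all genes, whose median difference moved to 0.043. Among genes above the median level 2 of 3 actins were higher, fewer because only those were tested, and with 1 pool left out 2 to 5 of 6 actins were. The filter on level removed Tmod2 and Tmod4. With the replicate number as a block, limma called 2 genes, neither a member, and the lowest adjusted p of any member in any setting was 0.544, there. Same-numbered pools deviated together with r of 0.287, 0.213, 0.305 and 0.062 across genes, and every pool correlated best with its own number, a hint from the data only, since the labels do not say what the number shares. Levels near background, as in Tmod2 and Tmod4, limit what can be seen there.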

Other observations

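The genes next to Tmod1 on chromosome 4 were listed after the Tmod1 values were seen, with their order taken from the RefSeq table of GRCm38.p6. Of the 3 nearest measured protein-coding genes on each side, the differences of KO minus WT ran from -0.09 to 0.31. 1300002K09Rik was at 5.36 in KO and 5.37 in WT, E230008N13Rik at 5.86 in KO and 5.95 in WT, Tdrd7 at 6.58 in KO and 6.35 in WT, Tstd2 at 7.27 in KO and 7.06 in WT, Ncbp1 at 7.95 in KO and 7.64 in WT, and Xpa at 7.32 in KO and 7.12 in WT. The groups of pools overlapped for all 6 neighbours. Tmod2 and Tmod3 are themselves adjacent on chromosome 9 among measured genes, and their differences were -0.14 and 0.18.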
